A study of Mus musculus with 9 samples.

Results

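The CLC family genes Clcn1 to Clcn7 encode the chloride channels and chloride/proton exchangers of the CLC type. They were taken by gene name, and all 7 were present among the 41710 gene names of the deposited transcript table, with 59 of its 127558 transcripts. The hearts came from male FVB/N mice at an age of 8 months, with 3 libraries for each of 3 groups, Tg-RKIP, the mice with the label Tg-GRK2, and FVB controls without a transgene. Tg-RKIP mice express RKIP, the RAF kinase inhibitor protein encoded by Pebp1, in the myocardium under control of the alpha-MHC promoter. Tg-GRK2 mice were labelled as carrying the G-protein-coupled receptor kinase GRK2 as transgene. All 3 groups share the FVB/N background, and the controls carry no transgene. Whole hearts were pulverized, so that fewer cells of a type and less RNA per cell cannot be told apart. Each library is labelled as 1 numbered heart of its group. Different Tg-RKIP lines were generated, and the line used and the promoter of the GRK2 transgene are not given in the sources used here.

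ClC-1 and ClC-2 are chloride channels of the plasma membrane. ClC-1, the product of Clcn1, is best known from skeletal muscle, where it carries most of the resting chloride conductance. ClC-2 opens on hyperpolarization and cell swelling. The products of Clcn3 to Clcn7 are found on endosomes and lysosomes, where most exchange chloride for protons while the V-ATPase pumps protons into the same compartments. ClC-7 needs its partner subunit Ostm1.

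Clcn1 transcripts differ in the use of a short exon that changes the reading frame, and the exon sequences are shown first because the Clcn1 results are given by this exon. The full-length transcript ENSMUST00000031894 joins exon 6 directly to exon 7. Other transcripts, among them ENSMUST00000168660, carry between these exons an additional exon of 79 bases, called 7a. In the deposited coordinates, for which the submitters' processing notes name GRCm39, exon 7a lies at chr6:42270378-42270456 and exon 7 at chr6:42271012-42271090, both on the plus strand. The sequences below were read from the GENCODE M21 transcripts, with the last 30 bases of exon 6 in lower case, exon 7a or exon 7 in capitals, and the first 30 bases of exon 7 after exon 7a in lower case.
Clcn1 with exon 7a: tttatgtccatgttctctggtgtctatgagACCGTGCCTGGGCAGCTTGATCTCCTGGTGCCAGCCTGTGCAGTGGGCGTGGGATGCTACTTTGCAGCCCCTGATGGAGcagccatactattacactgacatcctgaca
Clcn1 without exon 7a: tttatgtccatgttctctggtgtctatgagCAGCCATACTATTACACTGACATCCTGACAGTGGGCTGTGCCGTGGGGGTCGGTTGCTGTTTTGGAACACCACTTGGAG
Exon 7a and exon 7 have the same length of 79 bases. In the annotation of ENSMUST00000168660, a nonsense-mediated decay transcript with 24 exons, the reading frame that passes through exon 7a ends in the next exon at the stop codon that begins at base 18. This stop codon is in capitals in the sequence of exon 7.
Clcn1 exon 7: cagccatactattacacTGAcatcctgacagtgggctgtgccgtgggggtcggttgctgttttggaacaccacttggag

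The 300 bases around the RefSeq start of Clcn1 (250 before and 50 after it, GRCm38.p6, chr6:42286435-42286734, plus strand) are shown because Clcn1 differed most between the groups. The capitals mark 3 matches to CANNTG, the E-box pattern of muscle basic helix-loop-helix factors, and 1 match to a MEF2-like pattern, which is CTA and TAG with 4 free bases between them. Both patterns read alike on either strand, and both strands were covered by the search. The TATAAA inside the last match is also a TATA box pattern.
Clcn1 promoter: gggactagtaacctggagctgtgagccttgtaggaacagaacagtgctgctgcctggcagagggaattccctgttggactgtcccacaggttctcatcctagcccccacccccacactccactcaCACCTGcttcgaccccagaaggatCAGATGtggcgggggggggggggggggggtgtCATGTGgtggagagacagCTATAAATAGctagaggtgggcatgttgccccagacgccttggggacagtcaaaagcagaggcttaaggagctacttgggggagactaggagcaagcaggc
Of 32851 mouse promoters of this length, 72.3% hold CANNTG, 3.69% hold the MEF2-like pattern and 13.6% hold TATAAA. None of the other 10 promoter windows of the family holds the MEF2-like pattern. Such matches describe letters in a window and not bound sites. The Clcn1 window has 3 CpG dinucleotides against a median of 7 over all promoters. The 2 Clcn7 windows have 17 and 1, and those of the other members range from 6 to 38.

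The targeted genes were examined first. In the Tg-RKIP libraries, Pebp1 reads numbered 255727, 321666 and 252196, against 7140 to 8446 in the other 6. Its log2 fold change was 4.81 (SE 0.019) in Tg-RKIP against FVB. Grk2 held 1468, 1460 and 1765 reads in Tg-GRK2-labelled hearts and 1302, 1589 and 1341 in FVB, with a log2 fold change of 0.05 (SE 0.038, adjusted p = 0.354 by edgeR's quasi-likelihood test). A transgene whose sequence differs from that of mouse Grk2 may not be counted here, so that these reads do not check the label. The hearts of this group are named Tg-GRK2-labelled. The libraries held from 25458108 to 33447654 reads on transcripts, of which 5326 to 6926 lay on the 7 CLC genes. Mitochondrial genes took 11.7% ± 0.156 of the reads in Tg-RKIP, 22.6% ± 0.299 in Tg-GRK2-labelled hearts and 23.1% ± 0.158 in FVB (mean ± SD, n = 3). Replicate 1 of the Tg-GRK2-labelled hearts stood apart with 384039 reads of the ribosomal RNA gene Rn18s, against 55110 to 78546 in the other 8. The cardiomyocyte markers summed to 35895 to 36568 TPM in Tg-RKIP, 38856 to 40135 in Tg-GRK2-labelled hearts and 40604 to 40885 in FVB. Airway epithelium markers summed to 62.3 to 64.3 TPM in Tg-RKIP and 149 to 157 TPM in Tg-GRK2-labelled hearts, and to 0.113 to 0.639 TPM in FVB, where Scgb1a1, Scgb3a2 and Sftpc were at 0 reads. The part of these cells in the results below was not tested.

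Values are given on a pair of scales. The TPM (transcript abundance, reads divided by transcript length and scaled to a common total in each library) was summed over the transcripts of a gene and serves to compare levels between genes. The log2 fold change compares gene counts after TMM normalization, which sets the bulk of genes to no change. The median log2 fold change of the 15504 genes tested was 0.01 for Tg-RKIP against FVB with TMM, but 0.38 when counts were scaled to library size only. On the log2(TPM + 0.1) scale, with another filter, the median of 13478 genes was 0.43. A fold change near 0 with TMM therefore stands beside a higher TPM in Tg-RKIP.

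Transcript levels of the family fell into the same order at the top in each group. Clcn4, a transporter of endosomes, was the most abundant with 30.1 ± 1.13 TPM in FVB, followed by Clcn3 with 18.2 ± 0.712, Clcn7 with 10.5 ± 0.486 and Clcn6 with 3.33 ± 0.136 TPM (mean ± SD, n = 3). Clcn1 with 1.87 ± 0.0859, Clcn2 with 1.26 ± 0.396 and Clcn5 with 1.10 ± 0.126 TPM were the lowest in FVB. The ranges of neighbours in this order did not overlap, except for Clcn2 and Clcn5. In Tg-RKIP, Clcn1 moved from the fifth place to the last, with no overlap between any neighbours. In Tg-GRK2-labelled hearts, Clcn1 overlapped with Clcn6, and Clcn5 with Clcn2. Clcn4 took 45.3% ± 0.304 of the summed TPM of the family in FVB and 42.6% ± 0.484 in Tg-RKIP, whereas Clcn7 took 15.8% ± 0.939 and 21.0% ± 0.413. The sum over the family was 66.4 ± 2.14 TPM in FVB, 70.8 ± 0.433 in Tg-RKIP and 70.9 ± 0.900 in Tg-GRK2-labelled hearts.

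**Figure D1:**
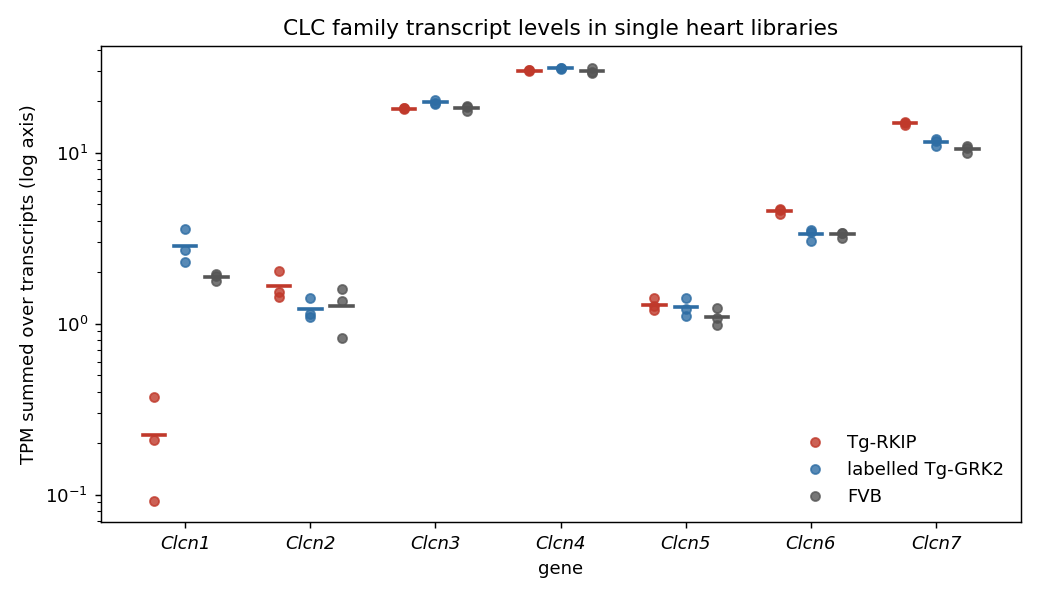
TPM summed over transcripts (log axis) of each CLC gene in each of the 9 heart libraries, with points for single libraries and short lines for the mean of 3. Clcn1 in Tg-RKIP lies between 0.0923 and 0.372 TPM, below every library of the other groups, while Clcn4 lies near 30.1 TPM in all groups.

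The family was selected on the reads and TPM of its genes in these 3 groups, which were known beforehand, so that the values of the members are a description without a test. Of the 7 members, 3 passed the threshold of an adjusted p under 0.05 in Tg-RKIP against FVB, all with lower values, where 73.9% of the tested genes passed in either direction and 37.1% with lower values. Between Tg-GRK2-labelled hearts and FVB, 1 member passed with a higher value, against 24.5% of the tested genes in either direction and 12.2% with higher values. Between Tg-RKIP and Tg-GRK2-labelled hearts, 3 members passed with lower values, against 74.5% of genes in either direction and 36.6% with lower values. In TPM, the libraries of Tg-RKIP and FVB did not overlap for 3 members (Clcn1 lower, Clcn6 and Clcn7 higher), against 78.8% of the tested genes, with 64.3% higher and 14.4% lower. Tg-GRK2-labelled hearts did not overlap FVB for Clcn1 and Clcn3, both higher, against 33.8% of genes without overlap and 22.9% higher without overlap. Tg-RKIP did not overlap Tg-GRK2-labelled hearts for 6 members, of which Clcn2, Clcn6 and Clcn7 were higher and Clcn1, Clcn3 and Clcn4 lower. Of all tested genes, 78.5% did not overlap there, 61.6% higher and 16.9% lower. On TMM-normalized counts, Clcn2 was without overlap in the other direction, with a log2 fold change of −0.20 (SE 0.16). The directions depend on the scaling. With library size only, Clcn5, Clcn6 and Clcn7 passed with higher and Clcn1 and Clcn3 with lower values in Tg-RKIP against FVB, where 62.6% of genes passed with higher and 17.1% with lower values. The same 5 members passed in the same directions against Tg-GRK2-labelled hearts (62% of genes higher and 18.4% lower). With limma on log2(TPM + 0.1), Clcn6 and Clcn7 passed with higher values and Clcn1 with a lower value in Tg-RKIP against FVB, against 66.3% and 14.6% of the genes kept. Clcn3 was also lower against Tg-GRK2-labelled hearts by limma, where 63.3% of genes were higher and 17% lower and these 3 members passed in the same directions. As the members were selected on these values, nothing is read from the counts. The contrasts share libraries.

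Clcn1 was the member with the largest difference. The gene (ENSMUSG00000029862) lies at chr6:42263619-42292690 on the plus strand as deposited, with its 11 transcripts. Its reads numbered 7, 7 and 5 in Tg-RKIP hearts, 152, 164 and 155 in those labelled Tg-GRK2, and 93, 115 and 94 in FVB. The groups did not overlap, and the Tg-RKIP libraries lay far below all others. The TPM of Tg-RKIP hearts, 0.224 ± 0.140, was 8.37-fold lower than the 1.87 ± 0.0859 of FVB. On TMM-normalized counts the log2 fold change was −4.33 (SE 0.21), which corresponds to a 20.1-fold lower count. Of the 15504 genes tested, 17 had a lower log2 fold change. With so few reads left in Tg-RKIP, counting error limits this level, and 2 reads on ENSMUST00000163235, a transcript of 417 bases, made up 0.287 of the 0.372 TPM of replicate 1. In Tg-GRK2-labelled hearts, Clcn1 reached 2.86 ± 0.658 TPM and was above all FVB libraries, with a log2 fold change of 0.55 (SE 0.12). When each library was left out in turn, this value lay between 0.48 and 0.62. It did not pass the threshold with limma on log2(TPM + 0.1), at 0.56 (SE 0.29), or from transcripts that overlap no other gene, at 0.52 (SE 0.22).

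The reads of Clcn1 were distributed over 8 of its 11 annotated transcripts. The largest number lay on ENSMUST00000114684, a processed transcript with 15 exons that starts after exon 7 and has no annotated protein. It held 5, 7 and 3 reads in Tg-RKIP, 97, 97 and 101 in Tg-GRK2-labelled hearts, and 54, 77 and 56 in FVB. It shares 445 exonic bases with Fam131b on the opposite strand. Whether counting used strand is not given, and without it reads of both genes cannot be told apart there. Fam131b itself held 24, 32 and 45 reads in Tg-RKIP and 14, 21 and 22 in FVB, with a log2 fold change of 0.47 (SE 0.30, adjusted p = 0.172), and the low Clcn1 level of Tg-RKIP was therefore not accompanied by fewer Fam131b reads. In Tg-GRK2-labelled hearts, Fam131b held 26, 38 and 43 reads. Its log2 fold change against FVB was 0.81 (SE 0.30, adjusted p = 0.0547 by edgeR), in the direction of Clcn1. The part of shared reads in the Clcn1 values was not tested. Without ENSMUST00000114684, the log2 fold change of Clcn1 in Tg-RKIP was −5.07, and with this transcript alone it was −3.97.

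Transcripts that carry exon 7a, shown above, held 0 reads in every Tg-RKIP library, 50, 30 and 52 in Tg-GRK2-labelled hearts, and 39, 17 and 37 in FVB. Transcripts that join exon 6 to exon 7 without exon 7a held 0 reads in Tg-RKIP, 0, 37 and 1 in Tg-GRK2-labelled hearts, and 0, 21 and 0 in FVB. Among the former, 27, 0 and 0 reads in Tg-GRK2-labelled hearts and 10, 9 and 2 in FVB lay on ENSMUST00000238845, a transcript of 8 exons annotated as protein coding. These reads were spread unevenly over the replicates of a group, and how reads shared by several transcripts were divided is not given in the sources used here. The 3 transcripts annotated as protein coding held 0 reads in Tg-RKIP. The 42 reads they held in FVB put Tg-RKIP at least 18.1-fold lower, when the floor of 3 reads is set over the group. For Tg-GRK2-labelled hearts, with 64 such reads, Tg-RKIP was at least 25.8-fold lower. These bounds cover counting error only.

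**Figure D2:**
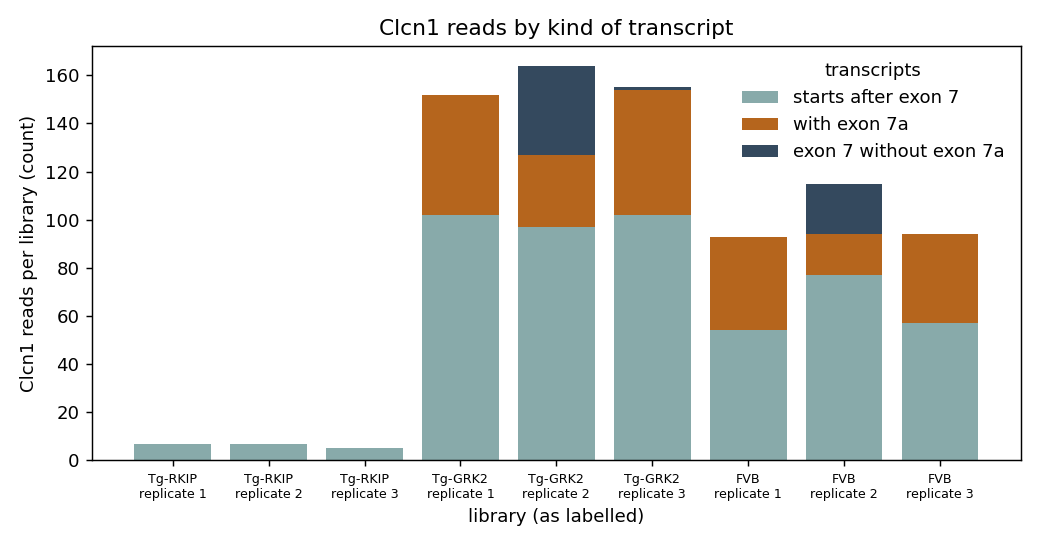
Clcn1 reads (counts, bars from 0) in each of the 9 libraries, stacked by transcripts that start after exon 7, that carry exon 7a, or that carry exon 7 without 7a. Tg-RKIP bars reach 5 to 7 reads and show no exon 7a, while FVB bars reach 93 to 115.

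The muscleblind and CELF proteins regulate the use of Clcn1 exon 7a in skeletal muscle. Of 7 listed genes of these proteins 6 were tested, of which 2 rose and 3 fell in Tg-RKIP against FVB. Of all tested genes, 36.8% rose and 37.1% fell. Mbnl2 fell by 0.84 on the log2 scale (SE 0.021, adjusted p = 1.62e-19), and Mbnl3, with few reads, fell by 1.27 (SE 0.47, adjusted p = 0.019). Celf4 rose by 1.79 (SE 0.18, adjusted p = 1.03e-08) and Celf2 by 0.23 (SE 0.028, adjusted p = 2.97e-07). The most abundant of these genes, Mbnl2, reached 108 ± 1.14 TPM in Tg-RKIP hearts, below the 131 ± 2.73 TPM of FVB. Scaled to library size only, 4 of the 6 were called higher and 1 lower, against 62.6% and 17.1% of all tested genes. As Clcn1 transcripts with and without exon 7a both held 0 reads in Tg-RKIP, the use of exon 7a has no value there. A link of these genes to Clcn1 was not tested.

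Of the skeletal muscle markers, which would mark skeletal muscle in a heart sample, 11 of 19 were tested. In Tg-RKIP against FVB, 6 were higher and 2 lower, against 36.8% and 37.1% of all tested genes. The fast troponin T gene Tnnt3 (log2 fold change 1.99) and the ryanodine receptor gene Ryr1 (1.74) rose most, while Atp2a1, the calcium pump of fast fibres (−0.96), and Cacna1s (−0.31) fell. The adult fast myosin genes Myh1, Myh2 and Myh4 held 0 to 13 reads in every library and were not tested. Tnnc2, the fast troponin C gene, held 0 or 1 read in every library of all groups. With library size only, 6 of the 11 were called higher and 0 lower, against 62.6% and 17.1% of all tested genes. The summed level of the markers was 377 to 405 TPM in Tg-RKIP, 255 to 266 in Tg-GRK2-labelled hearts and 238 to 256 in FVB, of which Myl1, also active in atria, gave 342 ± 11.7, 237 ± 6.17 and 223 ± 8.26 TPM. The part of such tissue in the Clcn1 values was not tested.

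Clcn2 was low in all groups and varied between libraries in TPM. The gene (ENSMUSG00000022843) lies at chr16:20521714-20536496 on the minus strand as deposited. It had 1.52, 2.02 and 1.44 TPM in Tg-RKIP, 1.09, 1.14 and 1.42 in Tg-GRK2-labelled hearts and 1.60, 1.36 and 0.823 in FVB. The groups overlapped between Tg-RKIP and FVB. The log2 fold change was −0.04 (SE 0.16) in Tg-RKIP and 0.16 (SE 0.16) in Tg-GRK2-labelled hearts. With 44 to 92 reads per library, and with 85 exonic bases shared with Fam131a and 82 with Polr2h on the opposite strand, the depth limits what can be seen for this gene. Fam131a fell by 0.77 on the log2 scale (SE 0.055, adjusted p = 2.93e-11) and Polr2h rose by 0.53 (SE 0.094, adjusted p = 3.3e-05) in Tg-RKIP.

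The most abundant members, Clcn3 and Clcn4, had nearly equal TPM in all groups. Clcn3 (ENSMUSG00000004319) lies at chr8:61363423-61436334 on the minus strand as deposited, and Clcn4 (ENSMUSG00000000605) lies at chr7:7285308-7303850 on the minus strand. Clcn3, the product of which is an exchanger of endosomes and synaptic vesicles, had 18.2, 18.1 and 17.9 TPM in Tg-RKIP and 18.7, 18.6 and 17.4 in FVB, and 19.3, 20.2 and 19.5 in Tg-GRK2-labelled hearts. Clcn4 had 29.9, 30.4 and 30.2 TPM in Tg-RKIP and 31.4, 29.7 and 29.3 in FVB, and 31.0, 31.2 and 31.2 in Tg-GRK2-labelled hearts. Tg-RKIP and FVB overlapped in both genes on this scale. Relative to the bulk of genes, both were lower in Tg-RKIP, with TMM log2 fold changes of −0.51 (SE 0.032) for Clcn3 and −0.42 (SE 0.028) for Clcn4, without overlap. With library size only, the values were −0.14 and −0.05. From the Clcn4 transcripts that overlap no other gene, which leave out its main transcript, the value was −0.77 (SE 0.53) and did not pass. In Tg-GRK2-labelled hearts the TMM values were 0.05 (SE 0.031) and −0.01 (SE 0.028).

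**Figure D3:**
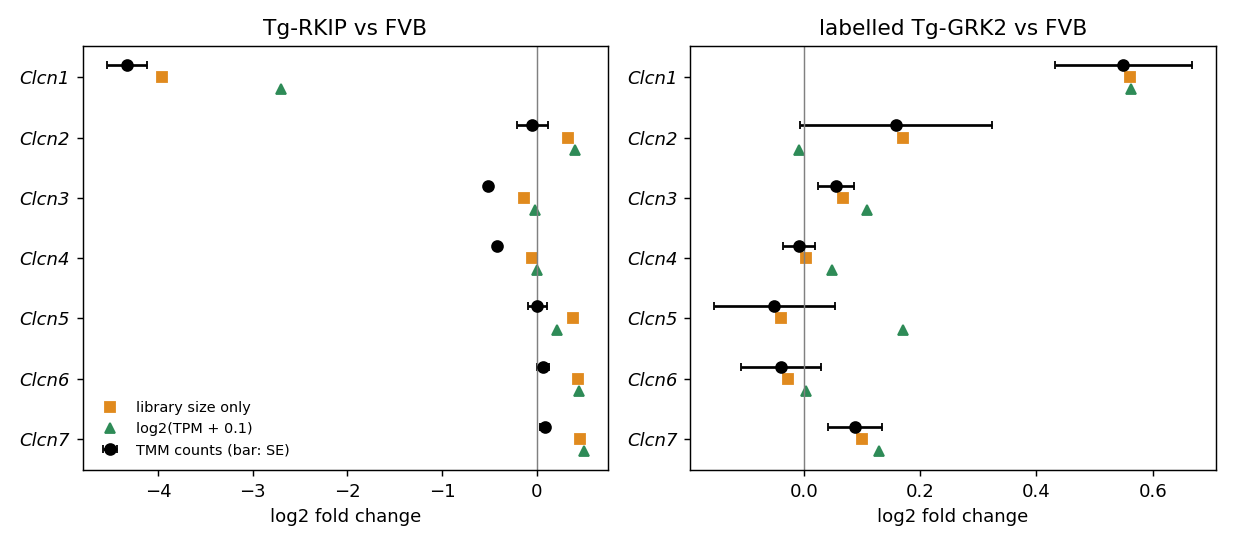
Log2 fold changes of the 7 CLC genes against FVB for Tg-RKIP (left) and Tg-GRK2-labelled hearts (right), from TMM-normalized counts with SE bars (n = 3 per group), from counts scaled to library size only and from log2(TPM + 0.1). The horizontal scales differ. Clcn1 lies at −4.33 in Tg-RKIP, where all members lie further to the right without TMM.

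Within Clcn3 the protein-coding transcript ENSMUST00000093490 made up 67.9% ± 5.69 of the TPM in Tg-RKIP and 69.5% ± 3.30 in FVB. The short processed transcript ENSMUST00000145741 (4 exons) had 5.48, 5.49 and 3.92 TPM in Tg-RKIP and 3.19, 2.23 and 2.41 in FVB, and 1.91, 2.49 and 3.77 in Tg-GRK2-labelled hearts. The Tg-RKIP values lay above all others in TPM, by a small margin (3.92 against 3.77). Reads of ENSMUST00000145741 overlapped, with 271, 351 and 192 in Tg-RKIP and 107, 134 and 239 in Tg-GRK2-labelled hearts. How reads shared with other Clcn3 transcripts were divided is not given in the sources used here. Clcn4 was made up almost wholly of ENSMUST00000000619, with 96.1% to 98.7% in the 9 libraries. Gm45631 shares 985 exonic bases with Clcn4 on the opposite strand but held only 0 to 8 reads per library, and Mir5620 inside Clcn4 held none.

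Clcn5, the gene of the endosomal exchanger mutated in Dent disease of the kidney, was among the lowest members. It (ENSMUSG00000004317) lies at chrX:7020049-7185597 on the minus strand as deposited. It had 1.41, 1.20 and 1.26 TPM in Tg-RKIP, 1.42, 1.21 and 1.11 in Tg-GRK2-labelled hearts and 1.08, 0.978 and 1.23 in FVB. These ranges overlapped, and the log2 fold change of Tg-RKIP was 0.01 (SE 0.0997). Its span on the X chromosome contains Gm26401, Mir188, Mir362, Mir500, Mir501 and Mir532, none of which had a read in the table. ENSMUST00000004428 provided 99.7% ± 0.583 of the TPM in Tg-RKIP and 86.5% ± 12.2 in FVB.

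Clcn6, an exchanger of late endosomes, is the neighbour of the natriuretic peptide genes. It (ENSMUSG00000029016) lies at chr4:148088716-148123278 on the minus strand as deposited. It had 4.67, 4.63 and 4.39 TPM in Tg-RKIP, 3.44, 3.05 and 3.52 in Tg-GRK2-labelled hearts and 3.41, 3.40 and 3.17 in FVB, and Tg-RKIP lay above both. With TMM the log2 fold change was 0.06 (SE 0.066) and the groups overlapped. Nppa, the gene of atrial natriuretic peptide, ends 2180 bases from the end of Clcn6 and is read from the opposite strand. It rose by 1.88 on the log2 scale (SE 0.015, adjusted p = 5.52e-28) in Tg-RKIP, and Nppb rose by 1.51 (SE 0.022, adjusted p = 1.38e-23). Gm13054, 245 bases from Clcn6, rose by 1.58 (SE 0.12, adjusted p = 5.47e-11). Its span overlaps that of Nppa on the opposite strand, and the part of Nppa reads in its count was not tested. Clcn6 therefore differed little on a scale where its neighbour Nppa was much higher.

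The neighbours of the other members were described in the same way. These neighbour values are TMM log2 fold changes, and scaling to library size only raises each of them, as it does for all genes. On either side of Clcn1, Casp2 rose by 0.29 (SE 0.069, adjusted p = 7.16e-04) and Zyx by 1.02 (SE 0.029, adjusted p = 2.14e-18) in Tg-RKIP, and so the low level of Clcn1 was not shared by them. Hpf1 and Nek1, which flank Clcn3, fell by 0.39 (SE 0.051, adjusted p = 4.87e-07) and by 0.59 (SE 0.054, adjusted p = 2.32e-09). Around Clcn2, Eif4g1 fell by 0.46 (SE 0.019, adjusted p = 1.73e-15), and Chrd had a log2 fold change of 0.07 (SE 0.14, adjusted p = 0.652). Around Clcn5, Shroom4 fell by 0.86 (SE 0.051, adjusted p = 1.18e-12) and Usp27x rose by 1.10 (SE 0.26, adjusted p = 7.03e-04). Around Clcn4, Gm45844 rose by 1.49 (SE 0.28, adjusted p = 6.86e-05) and the distant Zik1 fell by 0.70 (SE 0.14, adjusted p = 1.03e-04). Around Clcn7, Ptx4 rose by 2.33 (SE 0.47, adjusted p = 1.34e-04) and BC003965 fell by 0.45 (SE 0.045, adjusted p = 8.82e-09).

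The gene of the lysosomal exchanger ClC-7, Clcn7 (ENSMUSG00000036636), spans chr17:25352365-25381078 on the plus strand as deposited. It had 15.1, 14.6 and 14.9 TPM in Tg-RKIP, 11.9, 11.6 and 10.9 in Tg-GRK2-labelled hearts and 10.6, 9.96 and 10.9 in FVB. Tg-RKIP lay above both other groups, 1.42-fold ± 0.0254 above the FVB mean. With TMM the log2 fold change was 0.08 (SE 0.045) and the groups overlapped. The main transcripts of Clcn7 differ in their start. ENSMUST00000040729 starts at base 25352365 of chromosome 17 and ENSMUST00000160961 at base 25355596, as deposited.

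The 2 RefSeq promoter windows of Clcn7 are shown because they precede different starts of the gene (GRCm38.p6, plus strand, chr17:25133141-25133440 and chr17:25136381-25136680). They were not matched by coordinates to the deposited transcripts, which are on another build. CpG dinucleotides are in capitals, 17 in the first window and 1 in the second.
Clcn7 upstream window: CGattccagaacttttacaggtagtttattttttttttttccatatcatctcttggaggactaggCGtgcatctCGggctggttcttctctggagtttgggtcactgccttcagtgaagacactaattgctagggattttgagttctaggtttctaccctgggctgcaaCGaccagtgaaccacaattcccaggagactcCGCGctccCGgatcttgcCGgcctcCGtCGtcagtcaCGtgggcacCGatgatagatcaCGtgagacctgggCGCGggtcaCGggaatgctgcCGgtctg
Clcn7 downstream window: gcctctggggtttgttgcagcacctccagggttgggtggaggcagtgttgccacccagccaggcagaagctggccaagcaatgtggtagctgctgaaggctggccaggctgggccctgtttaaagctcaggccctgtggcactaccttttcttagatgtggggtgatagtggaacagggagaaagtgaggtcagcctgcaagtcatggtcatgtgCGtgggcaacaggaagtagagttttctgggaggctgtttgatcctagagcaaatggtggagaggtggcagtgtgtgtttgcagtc

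ENSMUST00000160961 took 76.8%, 77.7% and 86.7% of the Clcn7 TPM in Tg-RKIP, 44.3%, 52.8% and 21.96% in Tg-GRK2-labelled hearts, and 68.1%, 9.75% and 29.2% in FVB. The Tg-RKIP shares lay above all others, but the FVB libraries differed widely among themselves. In TPM, ENSMUST00000160961 had 11.9 ± 0.880 in Tg-RKIP and 3.80 ± 3.17 in FVB, while ENSMUST00000040729 had 2.69 ± 0.735 and 6.02 ± 3.53 (n = 3). Both transcripts have 25 exons, and single reads of 50 bases that fall on shared exons do not tell them apart. Clcn7 as a whole was less variable than either transcript. Over all 9 libraries, ENSMUST00000160961 had the higher mean, 6.78 against 5.16 TPM, through its level in Tg-RKIP. In Tg-GRK2-labelled hearts, as in FVB, the mean of ENSMUST00000040729 was higher, with 6.76 ± 1.51 against 4.61 ± 1.97 TPM. From ENSMUST00000160961 alone, the log2 fold change of Clcn7 in Tg-RKIP against FVB was 1.27 (SE 0.31), against 0.08 for the whole gene. It passed the threshold, but the transcript was picked with the Tg-RKIP libraries included, so that this is no test.

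**Figure D4:**
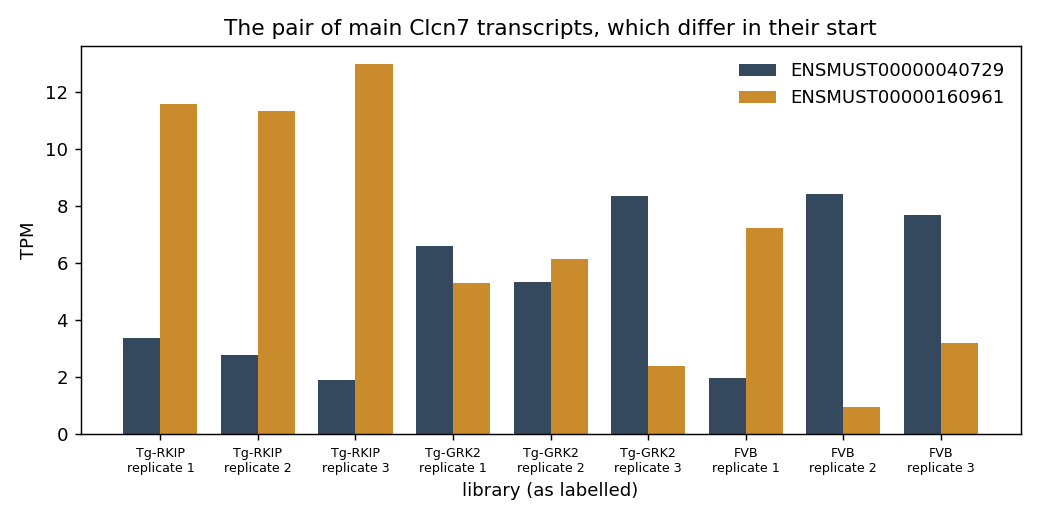
TPM (bars from 0) of the pair of Clcn7 transcripts that differ in their start, in each of the 9 libraries. ENSMUST00000160961 exceeds ENSMUST00000040729 in every Tg-RKIP library, with 11.3 to 13.0 TPM, while in FVB it ranges from 0.971 to 7.23 TPM.

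Partners of the family were mostly scarce except those of ClC-7 and the exchangers. Ostm1, the partner of ClC-7, had 27.6 ± 0.638 TPM in Tg-RKIP and 19.2 ± 0.880 in FVB, and rose by 0.11 on the log2 scale (SE 0.040, adjusted p = 0.0155). Tmem9 rose by 0.34 (SE 0.071, adjusted p = 2.15e-04) and Tmem9b by 0.38 (SE 0.045, adjusted p = 1.36e-07). None of these 3 passed the threshold in Tg-GRK2-labelled hearts. Hepacam and Mlc1, partners of ClC-2 in glia, held 0 to 5 reads per library, and Bsnd, the gene of barttin, held at most 1 read.

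The V-ATPase is the proton pump of the compartments in which the exchangers reside. Of its 25 listed genes 21 were tested, and in Tg-RKIP 19 rose and 1 fell, with a median log2 fold change of 0.49 against 0.01 over all tested genes, of which 36.8% rose and 37.1% fell. Atp6v0d2 rose by 3.10 (SE 0.38, adjusted p = 2.48e-07) and Atp6v0a4 by 2.57 (SE 0.26, adjusted p = 1.08e-08), from 0.104 and 0.190 TPM in FVB. Atp6v0c, the proteolipid of the proton channel, rose by 0.51 (SE 0.023, adjusted p = 1.42e-14) and reached 282 ± 3.90 TPM in Tg-RKIP, more than any other subunit. Atp6v1c1 rose least, by 0.10 (SE 0.030, adjusted p = 0.00484), and Atp6v0a2 fell by 0.48 (SE 0.036, adjusted p = 9.05e-11). In Tg-GRK2-labelled hearts, 2 rose and 9 fell with TMM, with a median of −0.05, against 12.2% of all tested genes in each direction. With limma on log2(TPM + 0.1), 4 of 20 were called higher and 0 lower there, so that the direction depends on the scale (13.1% of genes higher and 6.05% lower). The counts in Tg-RKIP with library size only were 20 higher and 1 lower, against 62.6% and 17.1% of all tested genes.

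Of 14 genes of the lysosome membrane, its enzymes and regulators, all tested, 9 rose and 4 fell in Tg-RKIP, with a median of 0.41, against 36.8% and 37.1% of all tested genes. Scaling to library size only gave 12 higher and 2 lower, with a median of 0.79, against 62.6% and 17.1% of all tested genes. The gene of the cholesterol carrier Npc2 rose by 1.05 (SE 0.029, adjusted p = 1.93e-18). Npc1 fell by 1.18 (SE 0.024, adjusted p = 6.38e-21) and the transcription factor gene Mitf by 1.05 (SE 0.030, adjusted p = 3.21e-18). The summed level of the list was 3021 to 3101 TPM in Tg-RKIP and 1665 to 1705 in FVB.

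Of 13 other chloride channel genes 10 were tested, of which 3 rose and 6 fell in Tg-RKIP with TMM, with a median of −0.27, against 36.8% and 37.1% of all tested genes. With library size only, 4 were called higher and 0 lower, against 62.6% and 17.1% of all tested genes. The direction of this list thus depends on the scaling. Best3 fell by 0.59 (SE 0.11, adjusted p = 4.83e-05) and Lrrc8a, the essential subunit of volume-regulated anion channels, by 0.35 (SE 0.045, adjusted p = 4.78e-07), the latter with 0.02 on the library-size scale. Lrrc8e rose by 0.97 (SE 0.27, adjusted p = 0.00256) and Lrrc8d by 0.26 (SE 0.071, adjusted p = 0.00233). Cftr held 11 to 30 reads per library and had a log2 fold change of −0.72 (SE 0.34, adjusted p = 0.0605).

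Of 9 chloride cotransporters and exchangers, all tested, 2 rose and 5 fell in Tg-RKIP, with a median of −0.38, against 36.8% and 37.1% of all tested genes. Slc26a6 fell by 1.02 (SE 0.088, adjusted p = 8.18e-10) and Slc12a2, the sodium-potassium-chloride cotransporter, by 0.58 (SE 0.034, adjusted p = 1.21e-12). Slc4a3, the cardiac anion exchanger, was the most abundant gene of this list (87.0 ± 0.346 TPM in Tg-RKIP, 108 ± 7.15 in FVB). Slc12a4 rose by 0.09 (SE 0.031, adjusted p = 0.013). Slc4a1, of red blood cells, held 3 to 9 reads in Tg-RKIP, 11 to 14 in Tg-GRK2-labelled hearts and 0 to 1 in FVB. On the library-size scale, 3 were called higher and 4 lower, against 62.6% and 17.1% of all tested genes.

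**Figure D5:**
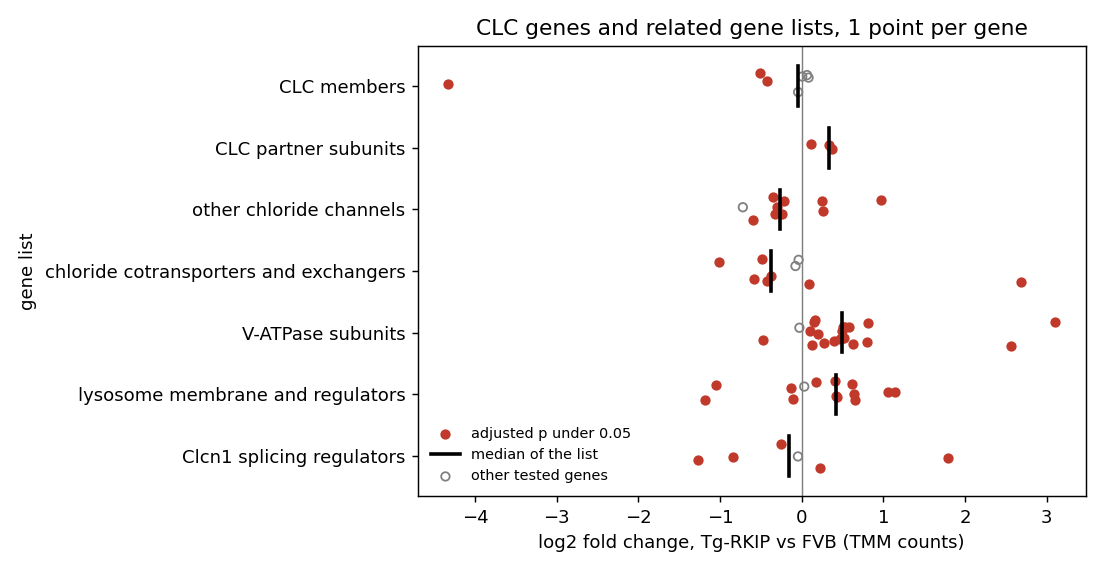
Log2 fold changes in Tg-RKIP against FVB (TMM-normalized counts) of each tested gene in the CLC family and 6 related lists, filled where the adjusted p from edgeR was under 0.05, with the median of each list as a bar. Clcn1 lies at −4.33, V-ATPase genes lie mostly to the right of 0 with a median of 0.49, and other chloride channels have a median of −0.27.

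Cell type markers moved with the groups beside these results. Of all tested genes, 36.8% rose and 37.1% fell in Tg-RKIP against FVB with TMM. Scaled to library size only, 62.6% were called higher and 17.1% lower. The 7 cardiomyocyte markers all fell in Tg-RKIP with TMM, with the ryanodine receptor gene Ryr2 (−2.07) and Myh6 (−1.35) lowest and Tnnt2 (−0.10) and Actn2 (−0.12) nearest to 0, while with library size only 2 were called higher and 5 lower. All 6 fibroblast markers rose, from Col1a1 (2.55) and Col1a2 (2.03) down to Dcn (0.60) and Pdgfra (0.26), and their sum was 2228 to 2231 TPM in Tg-RKIP and 858 to 891 in FVB. Of 6 macrophage markers 5 rose, with Cd68 (1.20) and Lyz2 (0.89) highest and Mrc1 (0.50) least, and Cd163 (−0.15) fell. All 6 macrophage markers, Cd163 included, were called higher with library size only. Of 7 smooth muscle and pericyte markers 4 rose and 3 fell, with Cnn1 (1.32) and Tagln (1.31) highest and Abcc9 (−1.53) and Myh11 (−0.51) lowest. Of 5 endothelial markers 3 rose and 2 fell, with Pecam1 and Egfl7 (0.22 each) highest and Kdr (−0.83) and Cdh5 (−0.46) lowest. All 6 adipocyte markers rose, with Ucp1 (3.08) and Cidec (2.90) highest and Lep (2.22) and Fabp4 (0.08) lowest. Of 6 markers of neurons and Schwann cells 5 were tested and 3 rose, among them S100b (3.24) and Tubb3 (2.05). With library size only, all 5 were called higher, and the smooth muscle and pericyte list had 4 higher and 2 lower. All adjusted p of these named markers were under 0.05 in edgeR. Their part in the CLC values was not tested.

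For each member the tested genes with a mean of at least 100 reads were ranked by the Pearson correlation of log2(TMM CPM + 0.5) over the 9 libraries. The genes most like Clcn1 were Anapc1 and Lama2 (r = 0.9991 for both) and Rtn4ip1 (r = 0.9988). Their log2 fold changes in Tg-RKIP against FVB were −0.63, −1.02 and −0.80, smaller in size than that of Clcn1. Clcn3 was most like Cpeb2, Nrd1 and Coro6 (r from 0.9982 to 0.9985) and Clcn4 was close to Togaram2 and Diaph2 (r from 0.9969 to 0.9972). The other members had weaker matches. Clcn2 came closest to Socs5, Kctd20 and Nudt9 (r from 0.858 to 0.930) and Clcn5 to Mex3d, Ppme1 and Trub2 (r from 0.879 to 0.904). Clcn6 came closest to Med30, Sdr42e1 and Ccdc149 (r from 0.883 to 0.948) and Clcn7 to Mrps12, Scly and D10Wsu102e (r from 0.897 to 0.901). The 9 points share their 3 groups, so that a correlation largely follows the group means.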

How the data were processed

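RNA of 9 mouse hearts was sequenced as single reads of 50 bases. The authors deposited read counts per Ensembl transcript, not normalized, and TPM values. The TPM equal those recomputed from the counts within 5.5e-06. The submitters' processing notes name GRCm39. Aligner and counter are not given in the sources used here, nor whether counting used strand. Reads and TPM were summed per gene name. All 7 members passed the expression filter (filterByExpr), so none was lost to it.

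Counts were fitted in R 4.3.3 with edgeR 4.0.16 (TMM, glmQLFit, glmQLFTest, all 9 libraries, 1 mean per group), with Benjamini-Hochberg adjustment over 15504 genes and a threshold of 0.05. The fit was tested on data simulated from Tg-GRK2-labelled hearts and FVB, with few changed genes and balanced directions. That simulation does not cover Tg-RKIP against FVB, where 73.9% of the tested genes passed. Alternatives used DESeq2 1.42.0 and limma 3.58.1. No pair of libraries of a group differed by less than sampling noise. The median chi-square per gene of such a pair was 1.35 to 1.48 times that of counting noise alone. For the median gene, libraries of a group thus differed little more than by counting noise. Libraries are labelled as separate hearts, and the p-values were computed against this small spread between them.

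The members and gene lists were chosen with earlier results of these data known. Named genes were the 7 members, their overlapping and nearest tested neighbours, the 3 most correlated genes, the targeted genes, and, of each list, the called genes with the 2 largest and 2 smallest log2 fold changes, with all partner subunits. Atp6v0c, Slc4a3, Cftr and Mbnl2 levels, Myh1, Myh2, Myh4 and Myl1, and the Nppa and Nppb genes beside Clcn6 were added after their values were seen. Promoters came from RefSeq (GRCm38.p6), and all 7 members matched. Values of some genes that the naming rule selects are not reported here.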

Additional observations from a re-analysis of the deposited data

How the results depend on the processing

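The low Clcn1 level in Tg-RKIP kept its direction and its side of the threshold under every alternative that was run. Of the log2 fold changes of members under all alternatives, 44 turned direction, counted as such whether or not they passed the threshold. Of those with unchanged direction, 365 stayed on the same side of the threshold, 16 newly passed and 13 no longer passed. Of the counts, 165 stayed within 1.5 times the reported count and 6 did not. With library size only, 5 members passed in Tg-RKIP against either group, 3 higher and 2 lower. In Tg-GRK2-labelled hearts against FVB, limma on log2(TPM + 0.1) called 0 members with or without a filter, where edgeR called 1, and 2 members (Clcn3 and Clcn7) had an unadjusted p under 0.05 in limma. With limma on log2(TPM + 1), 1 member passed. On log2(TPM + 0.1) without a filter, limma called 2060 genes and 35 list genes. Clcn1 in this contrast was 0.56 and did not pass with limma on log2(TPM + 0.1), was 0.41 and passed on log2(TPM + 1), and was 0.52 from transcripts that overlap no other gene, where it did not pass either. The share of ENSMUST00000114684 was 62.7% of the Clcn1 reads in Tg-GRK2-labelled hearts and 61.5% in FVB.

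Values near 0 with TMM turned direction, and Clcn7 passed the threshold after turning. Clcn2 in Tg-RKIP against FVB was 0.33 with library size only, 0.40 on log2(TPM + 0.1) and 0.25 on log2(TPM + 1), and against Tg-GRK2-labelled hearts it was 0.16, 0.41 and 0.26. Clcn2 in Tg-GRK2-labelled hearts against FVB was −0.0089 and −0.015 on the TPM scales. Clcn4 in Tg-RKIP against FVB was 0.0027 and 0.0026 on the TPM scales. Clcn4 in Tg-GRK2-labelled hearts was 0.00099 with DESeq2 size factors, 0.00096 in DESeq2, 0.0031 with library size only, and 0.049 and 0.047 on the TPM scales. Clcn5 was −0.0020 in Tg-RKIP with no filter, and 0.17 and 0.10 in Tg-GRK2-labelled hearts on the TPM scales. Clcn6 in Tg-GRK2-labelled hearts was 0.0025 and 0.0023 there. Clcn7 in Tg-RKIP against Tg-GRK2-labelled hearts was 0.36 with library size only, 0.0034 with a filter of 1 CPM, and 0.37 and 0.35 on the TPM scales. The values with library size only and on log2(TPM + 0.1) passed the threshold. From ENSMUST00000160961 alone, the transcript picked with the Tg-RKIP libraries included, Clcn7 was 1.03, and 1.27 against FVB. From transcripts that overlap no other gene, Clcn4 was −0.77 in Tg-RKIP and −0.46 in Tg-GRK2-labelled hearts against FVB, and did not pass. The cause was not tested.

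With each library left out in turn, Clcn2 lay between −0.21 and 0.083 in Tg-RKIP against FVB, where leaving out FVB replicate 3 or 2 gave these ends, and between −0.0051 and 0.29 in Tg-GRK2-labelled hearts. Clcn4 lay between −0.028 and 0.020 in Tg-GRK2-labelled hearts. Clcn5 lay between −0.085 and 0.085 in Tg-RKIP against FVB, between −0.14 and 0.034 in Tg-GRK2-labelled hearts, and between −0.0076 and 0.11 for Tg-RKIP against these. Clcn6 lay between −0.089 and 0.022 in Tg-GRK2-labelled hearts, and Clcn7 between −0.044 and 0.024 for Tg-RKIP against these. The number of genes called lay between 11012 and 11570 in Tg-RKIP against FVB. Where 2 libraries of a group remained, the spread was pooled over all groups.

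Libraries with the same number did not deviate together, with correlations of −0.057 to 0.046. With the replicate number as a block, 11401 genes passed in Tg-RKIP against FVB, 3660 in Tg-GRK2-labelled hearts against FVB and 11491 between these groups, and the members called were 3, 1 and 3. Depth limits Clcn1 in Tg-RKIP, with 5 to 7 reads a library, and Clcn2 in all groups, with 44 to 92.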
